A study of Mus musculus with 8 samples.

Results

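Collagen chain genes were examined in bulk RNA of mouse PrL tissue, an abbreviation read here as prelimbic cortex. Members were all genes of the deposited table whose symbol has the form Col, a type number, a and a chain number. The rule found 42 of the 14765 genes in the table, and used no measured value. The mouse annotation GENCODE M21 (build GRCm38) lists 44 such symbols, and Col10a1 and Col6a6 are not analysed here. The study compared SNI with Sham in C57 mice, with 4 libraries in each group. SNI stands in pain research for spared nerve injury, a nerve lesion that leaves lasting pain, and Sham is the control group. No further allele or agent, age, time after surgery or number of animals per library is given in the sources used here. Nothing states that the libraries are separate animals, so p-values here reflect library-to-library spread, some of which may be technical.

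Collagens are secreted or membrane-bound proteins built as trimers of chains that wind into a triple helix. Fibrillar types such as I and III give tensile strength to connective tissue, which in the brain is found in the meninges and around larger vessels. Type IV forms the network of the basement membrane under endothelial cells, and its main chains, encoded by Col4a1 and Col4a2, are made together. Type VI forms beaded filaments next to basement membranes, from chains encoded by Col6a1, Col6a2 and Col6a3. Other types decorate fibrils (FACIT, fibril-associated collagens with interrupted helices), span the cell membrane, or release signalling fragments (multiplexins). Several of the membrane and fibril-associated types are made by neurons.

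The results turn on the type IV pair and the type VI chains, so their start regions are shown first. Col4a1 and Col4a2 lie head to head on chromosome 8, and their annotated first exons overlap by 22 bases on opposite strands. That stretch, chr8:11312805-11312826 in GRCm38.p6, is given on the strand of Col4a2, with the one motif found in capitals:
Col4a1/Col4a2 overlap: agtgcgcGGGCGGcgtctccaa
Col6a1 and Col6a2 lie 85.2 kb apart on chromosome 10 in the same direction, and Col6a3 lies on chromosome 1. The bases just upstream of their GENCODE start sites are given on the strand of each gene (minus), from the RefSeq promoter table (GRCm38.p6): chr10:76726169-76726294 for Col6a1, chr10:76623631-76623880 for Col6a2 and chr1:90843972-90844221 for Col6a3. Capitals again mark a motif, and CCGCCC is GGGCGG read on the other strand.
Col6a1: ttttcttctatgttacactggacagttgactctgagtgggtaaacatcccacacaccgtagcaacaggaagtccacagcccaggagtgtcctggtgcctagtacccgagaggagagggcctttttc
Col6a2: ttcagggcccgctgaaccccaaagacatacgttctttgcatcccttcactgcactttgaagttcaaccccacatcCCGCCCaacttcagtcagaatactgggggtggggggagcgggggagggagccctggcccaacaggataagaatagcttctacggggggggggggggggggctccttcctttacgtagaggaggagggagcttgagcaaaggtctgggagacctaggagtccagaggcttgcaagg
Col6a3: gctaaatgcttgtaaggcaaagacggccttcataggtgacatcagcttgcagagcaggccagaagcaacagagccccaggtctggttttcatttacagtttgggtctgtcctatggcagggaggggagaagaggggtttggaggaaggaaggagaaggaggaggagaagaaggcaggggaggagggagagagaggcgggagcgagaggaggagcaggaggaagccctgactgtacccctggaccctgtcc

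The 4 motifs searched on both strands were GGGCGG (the GC box), CCAAT (the CAAT box), TATAAA (the TATA box) and TGACTCA (the AP-1 site), chosen after the sequences had been seen. The windows were the 250 bases upstream of each RefSeq start site, so the 22 bases shown above lie just outside those of Col4a1 and Col4a2. They covered 33 of the 42 genes, in 36 windows, beside 32851 windows in the whole table. GGGCGG was in 58.3% of the collagen windows and in 32.7% of all windows, at a median GC content of 59.0% and 52.4%. CCAAT was in 36.1% and 33.8%, TATAAA in 11.1% and 12.4%, and TGACTCA in 2.78% and 4.46%. The type IV pair shared CCAAT, which was in the windows of both Col4a1 and Col4a2. Col6a1 held the single TGACTCA of the collagen windows, downstream of the bases printed here. Matches are a description of the letters, not of bound factors.

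Each library held 14735602 to 19602487 counts, and collagen chains took 0.0363% to 0.0496% of them. Levels are in CPM, counts relative to a library size scaled by the TMM method, and a level compared between genes is further divided by transcript length (CPM per kb). The 9 markers of prelimbic cortical neurons were all present, with a summed level of 2747 to 2951 CPM in Sham and 2066 to 2716 CPM in SNI. Of these 9 markers 2 fell, and 6 had an unadjusted edgeR p under 0.05. Their log2 fold changes were negative in 6 and positive in 3, with a median of -0.22. Markers of striatal neurons, 10 of 11 present, summed to 170 to 345 CPM in Sham and 299 to 666 CPM in SNI, were highest in SNI replicates 2 and 4, and 1 of the 10 rose. All 10 had a positive log2 fold change, with a median of 1.03, and 7 had an unadjusted edgeR p under 0.05. Of 5 microglial markers 2 rose (4 with an unadjusted edgeR p under 0.05). Choroid plexus markers, 6 of 10 present, summed to 172 to 245 CPM in Sham and 172 to 211 CPM in SNI. Of the 5 tested, 3 had a positive and 2 a negative log2 fold change, and 2 rose (3 with an unadjusted edgeR p under 0.05). Of 5 markers of oligodendrocyte precursors 1 fell (1 with such a p), and of 7 astrocyte and 5 oligodendrocyte markers 0 passed the edgeR test (2 and 0 with such a p). Over all 13911 genes tested, 5.02% passed the edgeR test (2.15% higher and 2.87% lower in SNI), and 21.1% had an unadjusted edgeR p under 0.05. The part of these cells in the collagen levels was not tested.

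The collagen chains were scarce on the whole, and 4 genes supplied a large share of the reads. The median Sham level of the tested chains was 3.76 CPM, against 26.0 CPM for all tested genes. Col6a1, Col25a1, Col4a1 and Col4a2 held 45.4% to 53.1% of collagen counts in each library. Per length, Col25a1 (20.9 ± 1.66 CPM per kb) and Col6a1 (15.8 ± 7.62 CPM per kb) led in Sham, followed by Col4a2 (7.62 ± 0.904) and Col4a1 (7.31 ± 0.452), each mean with its SD over 4 libraries. Col9a3 (3.67 CPM per kb) and Col6a2 (3.25 CPM per kb) came next. The lowest was Col6a5 at 0.0418 CPM per kb. Of these 6 leading genes 5 also led when all annotated exons gave the length, where Col25a1 stood in rank 4 and Col6a2 in rank 13.

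**Figure D1:**
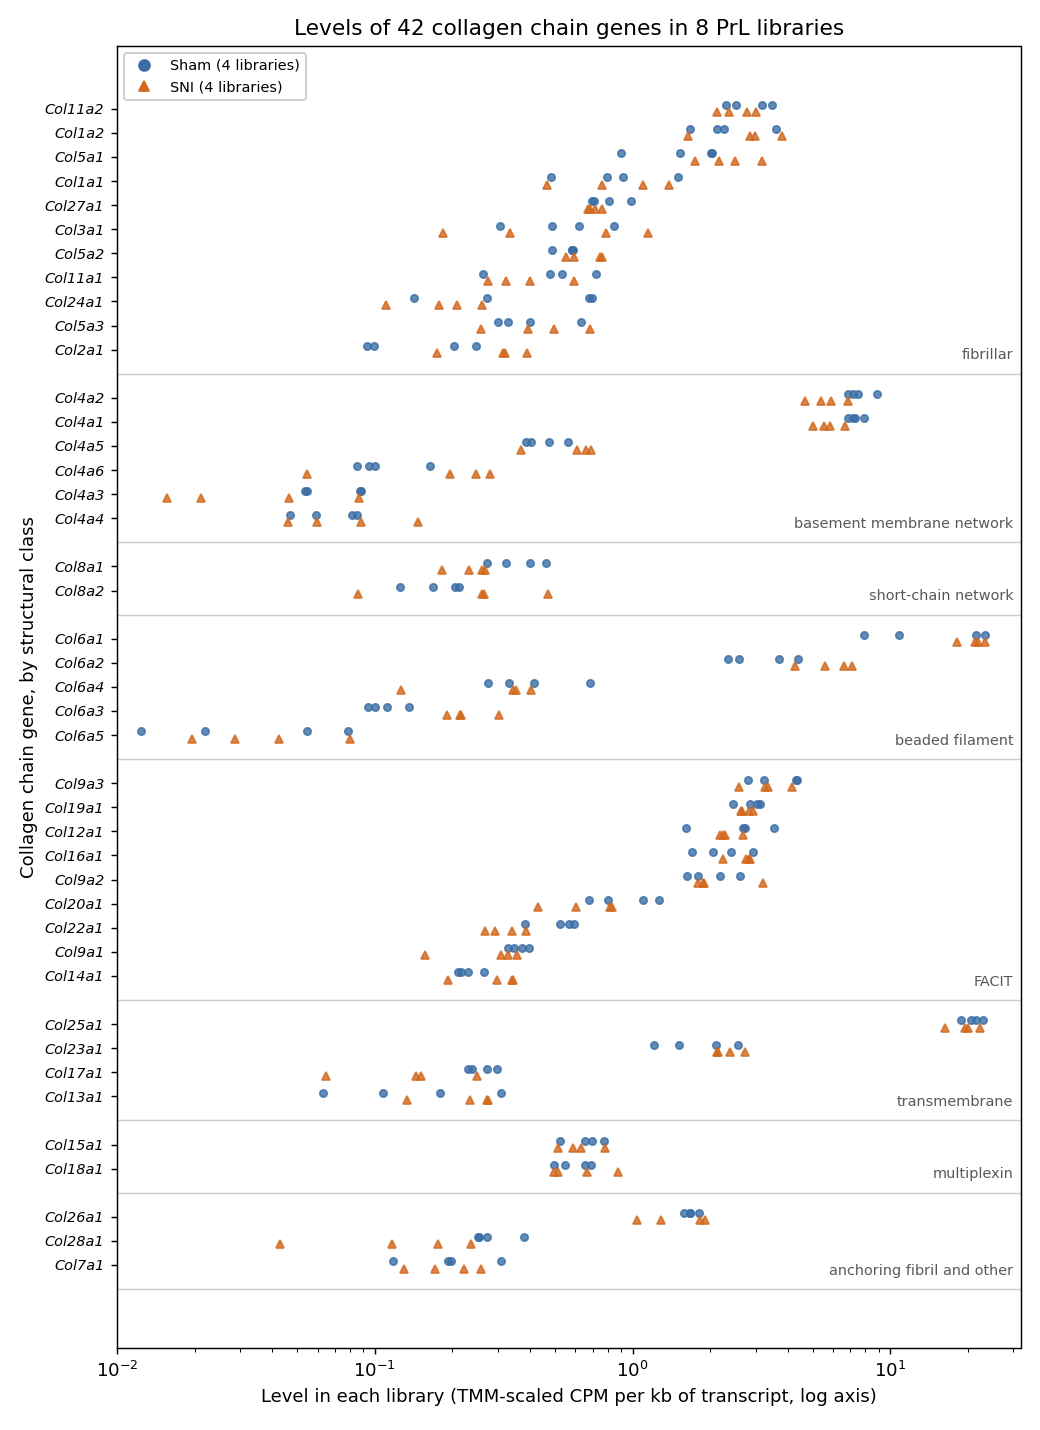
Levels of the 42 collagen chain genes, 1 row per gene within its structural class, in TMM-scaled CPM per kb of transcript on a log axis. Circles are the 4 Sham libraries and triangles the 4 SNI libraries; Col25a1, Col6a1, Col4a1 and Col4a2 stand to the right of the other chains in Sham, and in SNI the points of Col6a2 overlap those of Col4a1 and Col4a2.

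In the comparison of SNI with Sham, the 2 main type IV chains fell and 2 type VI chains rose. Of the 42 genes 40 passed the low-count filter and were tested. Col4a1 and Col4a2 were lower in SNI, and Col6a2 and Col6a3 were higher, at an adjusted p under 0.05 over all 13911 genes tested (edgeR quasi-likelihood test, Benjamini-Hochberg). That is 4 of 40, beside 5.02% of all tested genes, with 2.15% higher and 2.87% lower. The median log2 fold change was -0.03 over the 40 and 0.01 over all tested genes, with 19 of the 40 positive and 21 negative. The 4 SNI values lay wholly above the Sham values in 1 gene, Col6a3, and wholly below them in 3 genes, Col4a1, Col8a1 and Col28a1. Over all tested genes such separation was found in 12.7% (5.64% above and 7.02% below). An unadjusted edgeR p under 0.05 was reached by 10 of the 40, and by 21.1% of all tested genes.

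**Figure D2:**
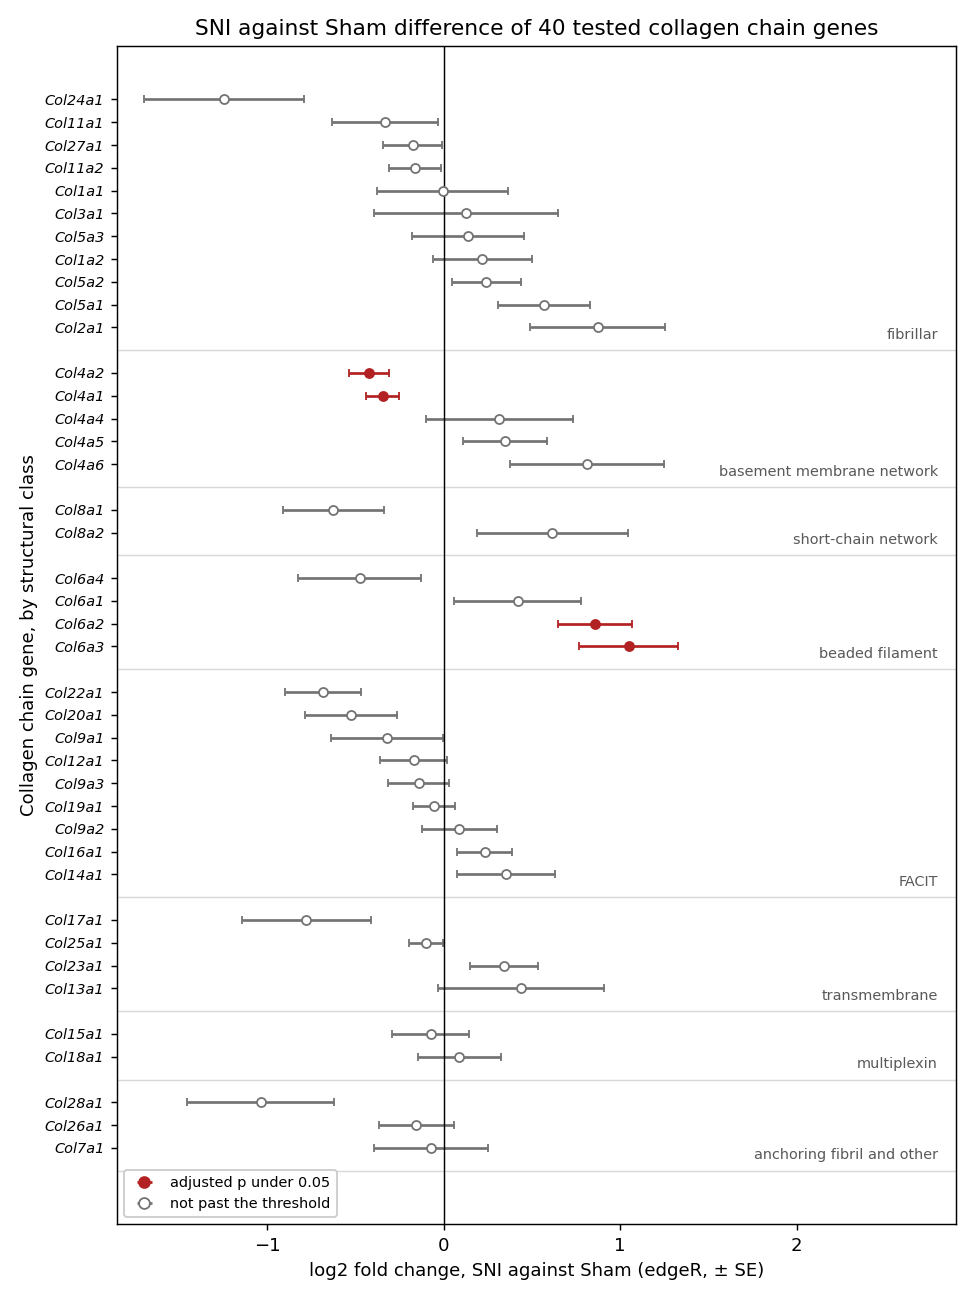
Log2 fold change of SNI against Sham for the 40 tested collagen chain genes, by structural class, with the standard error from edgeR. Filled points mark the 4 genes past the adjusted threshold: Col4a1 and Col4a2 to the left of 0, Col6a2 and Col6a3 to the right.

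Type IV collagen is described first. Col4a1 encodes the alpha1 chain of the basement membrane network. Its levels were 45.3, 52.4, 48.5 and 47.2 CPM in Sham replicates 1 to 4 and 38.7, 33.3, 44.0 and 36.6 CPM in SNI replicates 1 to 4. All SNI libraries lay below all Sham libraries, with SNI replicate 3 nearest to them. The log2 fold change was -0.34 ± 0.0934 (SE), a 1.27-fold fall, with an edgeR adjusted p of 0.0461.

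Col4a2 encodes the alpha2 chain that joins alpha1 in the same trimers. It had 46.4, 57.4, 48.5 and 44.1 CPM in Sham and 34.7, 30.2, 44.1 and 37.9 CPM in SNI. SNI replicate 3 stood level with Sham replicate 4, and the other SNI libraries lay below all Sham libraries. Its log2 fold change was -0.42 ± 0.114 (SE), a 1.34-fold fall, with an edgeR adjusted p of 0.0462. In bulk tissue, fewer cells of a type and less RNA per cell cannot be told apart.

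The 2 chains kept nearly the same proportion in every library. The per-length level of Col4a1 divided by that of Col4a2 averaged 0.965 (SD 0.0636) over the Sham libraries and 1.02 (SD 0.0722) over the SNI libraries. In GRCm38, Col4a1 spans 11198423 to 11312826 of chromosome 8 on the minus strand, and Col4a2 spans 11312805 to 11449287 on the plus strand. The 22 bases their exons share are 0.295% of the exon length of Col4a1 and 0.332% of that of Col4a2.

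The calls on this pair stood close to the threshold. When each library was left out in turn, Col4a1 passed in 1 of 8 fits (without SNI replicate 3) and Col4a2 in 2 (without Sham replicate 4 or SNI replicate 3), with edgeR adjusted p up to 0.115 and 0.114. Neither passed with upper-quartile scaling, with library totals as the only scaling, or with the replicate number added to the edgeR fit as a block. Library totals called 446 genes higher and 276 lower over all genes, against 299 and 399 with TMM, and among the collagen chains 2 higher and 0 lower, against 2 and 2.

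The levels of vascular cell markers are given beside this fall. The 12 endothelial markers, all present, summed to 408 to 480 CPM in Sham and 402 to 579 CPM in SNI, with a median log2 fold change of 0.11, and 0 of them passed (2 had an unadjusted edgeR p under 0.05). The 11 pericyte and smooth muscle markers summed to 238 to 305 CPM in Sham and 223 to 375 CPM in SNI, and 0 of the 10 tested passed or had an unadjusted p under 0.05. SNI replicate 3, where Col4a1 and Col4a2 were highest within SNI, also had the highest sums of both lists. Other libraries went the other way. SNI replicate 2, with the lowest Col4a1 and Col4a2 of all libraries, had an endothelial sum of 522 CPM, above every Sham library. Sham replicate 2, with the highest Col4a1 and Col4a2, had sums of 434 CPM (endothelial) and 245 CPM (pericyte and smooth muscle). The sums of both lists overlapped between groups, and the median log2 fold change of the pericyte and smooth muscle list was 0.15. Negative log2 fold changes were seen in 4 of the 12 endothelial markers and in 3 of the 10 tested pericyte and smooth muscle markers. The part of these cells in the levels of Col4a1 and Col4a2 was not tested.

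The other type IV chains were far scarcer. They are arranged in further head-to-head pairs, Col4a3 with Col4a4 (71 bases apart) and Col4a5 with Col4a6 (1308 bases apart), which supply the specialised basement membranes of organs such as kidney. Col4a5 had 2.65, 2.52, 3.10 and 3.67 CPM in Sham and 3.97, 4.31, 4.53 and 2.41 CPM in SNI. Its log2 fold change was 0.35 ± 0.238 (SE) and the groups overlapped. Col4a6 had 1.09, 0.664, 0.569 and 0.631 CPM in Sham and 1.30, 1.63, 1.86 and 0.362 CPM in SNI, with a log2 fold change of 0.81 ± 0.437 (SE). In both genes SNI replicates 1 to 3 lay above all Sham libraries and SNI replicate 4 below them. Col4a4 had 0.475, 0.598, 0.821 and 0.860 CPM in Sham and 1.49, 0.892, 0.466 and 0.603 CPM in SNI (0.32 ± 0.416 SE). None of these 3 genes passed. Col4a3 was not tested, with 11, 7, 12 and 8 counts in Sham and 12, 8, 2 and 3 counts in SNI.

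**Figure D3:**
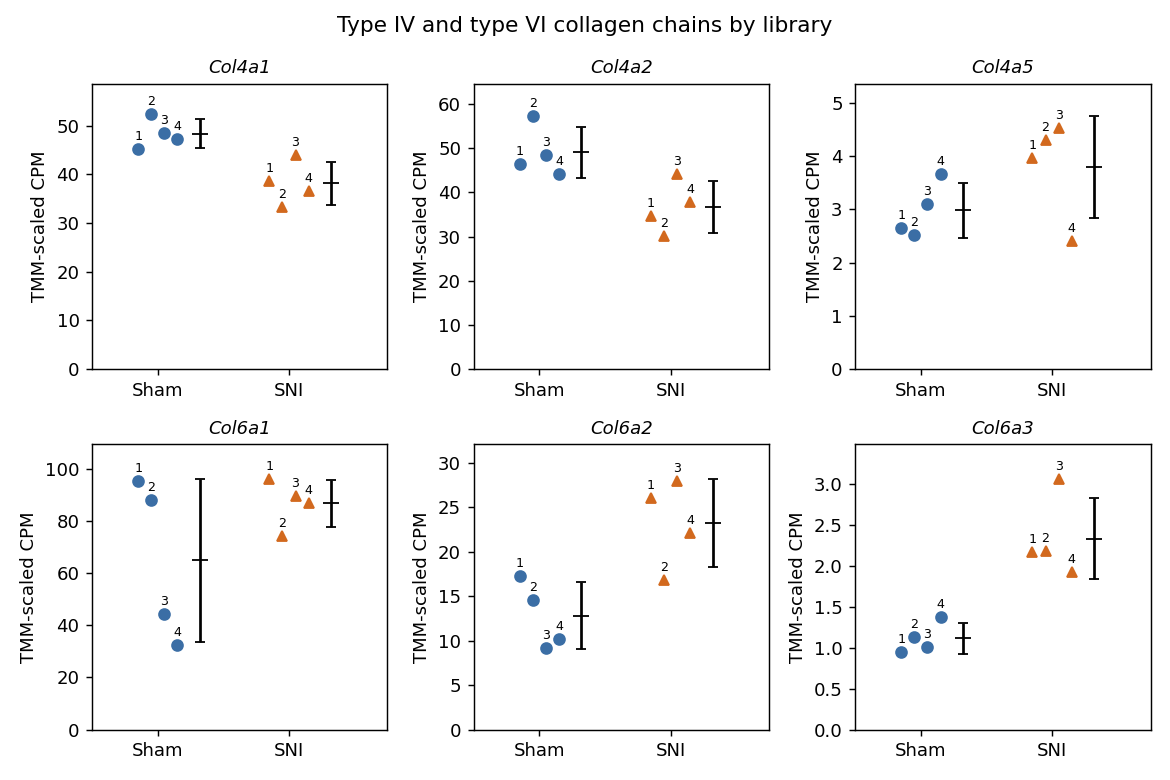
Levels of 3 type IV and 3 type VI chains in TMM-scaled CPM, with the replicate number beside each point and the mean ± SD (n = 4 libraries) to the right of each group. Col4a1 and Col4a2 are lower in SNI and Col6a2 and Col6a3 higher, while Col6a1 runs from 32.4 to 95.1 CPM within Sham.

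Of the type VI chains tested, 2 of 4 rose. Col6a2 encodes the alpha2(VI) chain. It had 17.3, 14.6, 9.23 and 10.2 CPM in Sham and 26.1, 16.8, 28.0 and 22.1 CPM in SNI. SNI replicate 2 lay just below Sham replicate 1, and the other SNI libraries lay above all Sham libraries. The log2 fold change was 0.86 ± 0.208 (SE), a 1.81-fold rise, with an edgeR adjusted p of 0.0376.

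Col6a3 encodes the larger alpha3(VI) chain. Its levels were 0.950, 1.13, 1.01 and 1.38 CPM in Sham and 2.17, 2.18, 3.06 and 1.93 CPM in SNI. No values overlapped between the groups. The log2 fold change was 1.05 ± 0.280 (SE), a 2.07-fold rise, with an edgeR adjusted p of 0.0419. The raw counts behind it were small, 14 to 24 in Sham and 32 to 46 in SNI.

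Col6a1, the alpha1(VI) chain and the most abundant of the family by reads, did not pass. It had 95.1, 88.0, 44.3 and 32.4 CPM in Sham and 95.9, 74.3, 89.7 and 87.0 CPM in SNI. The Sham libraries fell into a high pair (replicates 1 and 2) and a low pair (replicates 3 and 4), and the SNI libraries lay at or somewhat below the high pair. Its log2 fold change was 0.42 ± 0.360 (SE), with an edgeR adjusted p of 0.562.

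The chains of type VI therefore differed in their proportions from library to library. The per-length level of Col6a1 was 5.30, 5.81, 4.62 and 3.06 times that of Col6a2 in Sham and 3.54, 4.26, 3.08 and 3.79 times in SNI. Col6a2 was in turn 19.0 to 46.6 times Col6a3 in Sham and 19.7 to 30.8 times in SNI. The groups overlapped in both ratios.

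The type VI calls also depended on single libraries. Col6a2 passed in 2 of the 8 fits that left out a library (without Sham replicate 1 or SNI replicate 2) and Col6a3 in 1 (without SNI replicate 4), with edgeR adjusted p up to 0.103 and 0.123. Both passed in each of the other scalings, low-count filters and tools tried, DESeq2 and limma voom included. Neither passed when the replicate number was added to the edgeR fit as a block.

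The remaining beaded-filament chains lie in a row on chromosome 9. Col6a4 had 2.44, 3.05, 2.02 and 5.05 CPM in Sham and 0.929, 2.97, 2.60 and 2.53 CPM in SNI, with overlapping groups and a log2 fold change of -0.48 ± 0.346 (SE). Col6a5 was not tested, with 3, 11, 8 and 2 counts in Sham and 12, 8, 4 and 3 counts in SNI.

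The 11 fibrillar chains included none that passed, and their log2 fold changes ran from -1.24 to 0.87. Col1a1 and Col1a2 encode the chains of type I collagen, the main protein of connective tissue fibrils. Col1a1 had 2.85, 5.44, 4.74 and 8.89 CPM in Sham and 4.52, 6.49, 8.19 and 2.77 CPM in SNI. Col1a2 had 8.96, 11.4, 12.1 and 19.2 CPM in Sham and 15.3, 16.0, 20.3 and 8.80 CPM in SNI. The groups overlapped throughout, and the spread within a group exceeded the difference between them.

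Col3a1, the single chain of type III collagen, had 1.70, 3.45, 2.72 and 4.70 CPM in Sham and 1.86, 6.39, 4.39 and 1.02 CPM in SNI. The log2 fold changes were -0.01 ± 0.370 for Col1a1, 0.22 ± 0.281 for Col1a2 and 0.13 ± 0.520 for Col3a1 (SE). These 3 genes were low in the same libraries, Sham replicate 1 and SNI replicate 4, and high in Sham replicate 4 and SNI replicates 2 and 3. The 14 of 15 meningeal fibroblast markers present summed to 50.2, 81.2, 73.4 and 115 CPM in Sham and 78.7, 97.2, 124 and 51.0 CPM in SNI, lowest in the same 2 libraries. Of these 14 markers 0 passed or had an unadjusted edgeR p under 0.05, and their part in the levels of type I and III chains was not tested.

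**Figure D4:**
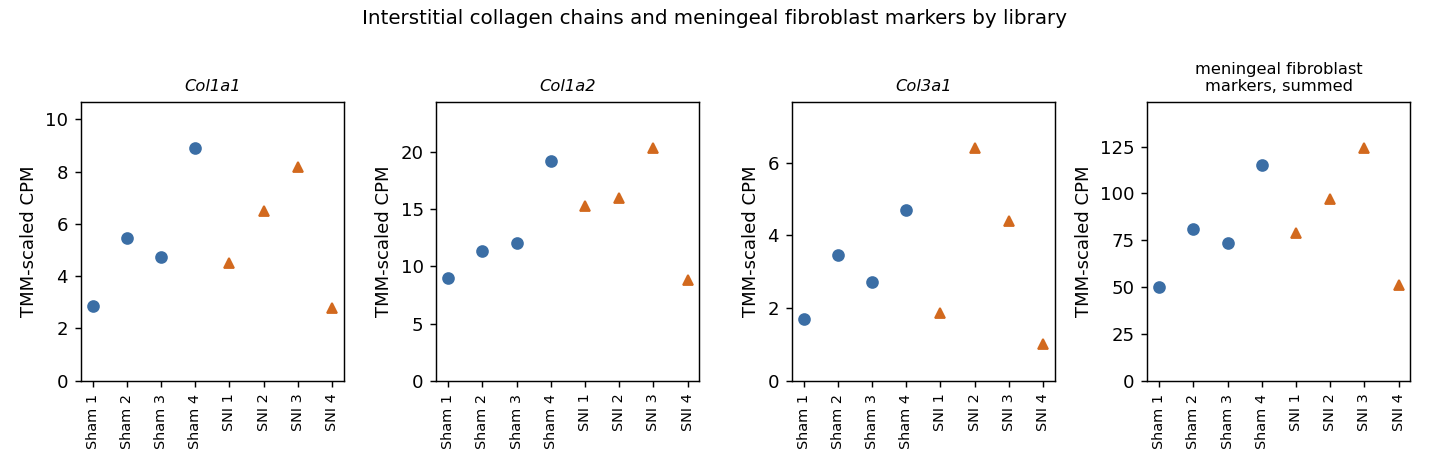
Levels of Col1a1, Col1a2 and Col3a1 and the summed level of 14 meningeal fibroblast markers, in TMM-scaled CPM, by library (circles Sham, triangles SNI). Sham replicate 1 and SNI replicate 4 are low in each panel, with marker sums of 50.2 and 51.0 CPM.

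Among the minor fibrillar chains, Col5a1, which starts and limits the width of type I fibrils, had 17.0, 16.9, 12.8 and 7.57 CPM in Sham and 21.0, 14.7, 26.7 and 18.2 CPM in SNI (log2 fold change 0.57 ± 0.260 SE, edgeR adjusted p = 0.248). Its partners Col5a2 and Col5a3 had 0.24 and 0.14. Col24a1, a fibrillar chain of developing bone and cornea, had 4.95, 4.85, 1.01 and 1.95 CPM in Sham and 1.49, 0.793, 1.86 and 1.27 CPM in SNI. Sham replicates 1 and 2 stood above every other library, Sham replicate 4 lay just above the SNI values, and Sham replicate 3 lay among them. The log2 fold change of Col24a1 was -1.24 ± 0.454 (SE), with an edgeR adjusted p of 0.137, and 0.0425 without Sham replicate 3. Col2a1, the cartilage type II chain, had 0.475, 1.26, 0.505 and 1.03 CPM in Sham and 1.98, 0.892, 1.60 and 1.63 CPM in SNI, with only SNI replicate 2 inside the Sham range (0.87 ± 0.383, edgeR adjusted p = 0.204). Col11a1, Col11a2 and Col27a1 had log2 fold changes of -0.33, -0.16 and -0.18.

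Of the 9 FACIT chains, 3 were positive and 6 negative, and 0 passed. Col22a1 had the smallest p of all chains that did not pass, with 5.22, 4.98, 4.61 and 3.38 CPM in Sham and 3.41, 2.58, 3.00 and 2.35 CPM in SNI. Only SNI replicate 1 reached into the Sham range, just above Sham replicate 4. Its log2 fold change was -0.68 ± 0.216 (SE), with an edgeR adjusted p of 0.0825, and DESeq2 gave 0.0459. Col12a1, a large chain bound to fibril surfaces, had 40.8, 31.3, 30.8 and 18.6 CPM in Sham and 25.1, 26.3, 30.8 and 25.9 CPM in SNI. Col19a1, made by interneurons and needed for inhibitory synapses, had one of the narrowest ranges, 10.5 to 13.3 CPM in Sham and 11.2 to 12.5 CPM in SNI (log2 fold change -0.05 ± 0.120 SE).

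The type IX chains Col9a1, Col9a2 and Col9a3 had log2 fold changes of -0.32, 0.09 and -0.14. Col9a3 had 13.1, 8.57, 9.86 and 13.2 CPM in Sham and 7.87, 9.91, 12.6 and 10.2 CPM in SNI, and the groups overlapped. Of the gene, 6.07% of the exon length overlaps Tcfl5 on the opposite strand, so its reads are uncertain. Col14a1 and Col16a1 had 0.35 and 0.23, and Col20a1 had -0.53 ± 0.261 (SE, edgeR adjusted p = 0.262).

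Of the 4 transmembrane chains 0 passed. Col25a1, a neuronal chain also known as the collagen-like component of amyloid plaques, had 49.5, 56.3, 53.8 and 59.9 CPM in Sham and 50.9, 58.3, 42.9 and 52.4 CPM in SNI. Its groups overlapped, with a log2 fold change of -0.10 ± 0.0961 (SE) and an edgeR adjusted p of 0.586. Col17a1, a hemidesmosome chain, had 1.29, 1.33, 1.52 and 1.66 CPM in Sham and 0.805, 0.842, 1.40 and 0.362 CPM in SNI (-0.78 ± 0.363 SE, edgeR adjusted p = 0.234). SNI replicate 3 alone lay within its Sham range. Col13a1 and Col23a1 had 0.44 and 0.34. The multiplexins Col15a1 and Col18a1, whose ends are cleaved to release fragments such as endostatin, had -0.07 and 0.09.

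Among the rest, Col8a1 and Col28a1 separated the groups without passing. Col8a1, a chain of the short-chain network made by vessel walls, had 2.04, 1.39, 1.64 and 2.35 CPM in Sham and 1.36, 1.19, 0.932 and 1.33 CPM in SNI (log2 fold change -0.62 ± 0.288 SE, edgeR adjusted p = 0.228). Its partner Col8a2 had 0.62 ± 0.430 (SE). Col28a1, a chain found around peripheral nerve glia, had 1.15, 1.06, 1.07 and 1.61 CPM in Sham and 0.744, 0.495, 0.998 and 0.181 CPM in SNI. Its log2 fold change was -1.04 ± 0.417 (SE, edgeR adjusted p = 0.166), on as few as 3 counts in SNI replicate 4. Col7a1, of anchoring fibrils, and Col26a1 had -0.07 and -0.15.

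Replicate spread was wide for these genes. The median coefficient of variation of the tested chains was 22.5% in Sham and 26.3% in SNI, against 9.35% and 11.9% for all tested genes, whose median level was higher. The summed collagen level was 462, 479, 372 and 381 CPM in Sham and 439, 396, 486 and 409 CPM in SNI, and the groups overlapped. SNI replicate 3 was the highest library for 12 of the 40 tested chains, and SNI replicate 4 was the lowest for 12 and the highest for 0.

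Genes that make and handle collagen mostly did not pass. For this list and those that follow, the shares over all tested genes were 5.02% past the threshold and 21.1% with an unadjusted edgeR p under 0.05. Of 20 genes for hydroxylation, glycosylation and folding of the chains 0 passed (2 had an unadjusted edgeR p under 0.05), with a median log2 fold change of 0.06. The 2 of smallest p were P3h4, a helper of lysyl hydroxylation (0.38 ± 0.116 SE, edgeR adjusted p = 0.0728), and Colgalt2, a collagen galactosyltransferase (0.34). Of 11 tested genes for procollagen trimming and crosslinking 1 rose, and 5 had an unadjusted edgeR p under 0.05. It was Adamts2, the protease that removes the amino-terminal propeptide of fibrillar procollagens, with 6.17, 6.71, 5.69 and 8.60 CPM in Sham and 12.95, 8.27, 10.4 and 14.0 CPM in SNI. SNI replicate 2 lay just below Sham replicate 4. Its log2 fold change was 0.74 ± 0.181 (SE, edgeR adjusted p = 0.0294), and the call held in 2 of the 8 fits that left out a library, without Sham replicate 4 or SNI replicate 2.

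Of 18 other basement membrane genes, laminins, nidogens and perlecan among them, 1 fell, and 2 had an unadjusted edgeR p under 0.05. The share past the threshold was 5.56%, near the 5.02% of all tested genes. Npnt, which encodes the integrin ligand nephronectin, had 21.6, 16.9, 29.8 and 30.5 CPM in Sham and 15.4, 12.9, 10.1 and 11.6 CPM in SNI. All SNI values lay below all Sham values. The log2 fold change was -0.98 ± 0.185 (SE, edgeR adjusted p = 0.0113), and the call held whichever single library was left out but not without SNI replicates 2 and 3 together (edgeR adjusted p = 0.183) or 2 and 4 together (0.133). The median of this list was 0.02.

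Of 13 tested matrix proteases and inhibitors 1 fell, and 3 had an unadjusted edgeR p under 0.05. Mmp17, a membrane-anchored metalloprotease, had 337, 299, 347 and 314 CPM in Sham and 285, 206, 198 and 245 CPM in SNI (log2 fold change -0.47 ± 0.106 SE, edgeR adjusted p = 0.0195). That call held in 4 of the 8 fits that left out a library, and ended without Sham replicates 1 or 3 or SNI replicates 2 or 3. Of 11 tested collagen receptors 0 passed (1 had an unadjusted edgeR p under 0.05), the 2 of smallest p being Itga10, an integrin subunit (-0.78), and Lair1, an inhibitory receptor of leukocytes (0.39). Of 20 proteoglycans and fibril partners 0 passed (1 with an unadjusted edgeR p under 0.05), led by Fbln1 (0.45) and Prelp (0.43). Of 16 tested TGF-beta genes 0 passed (3 with an unadjusted edgeR p under 0.05), led by Tgfbr3 (0.59) and Ctgf (0.42).

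Of 13 other genes whose products hold a collagen-like helix 4 had an unadjusted edgeR p under 0.05 and 1 fell, Colq, which encodes the tail that anchors acetylcholinesterase. It had 4.34, 3.25, 3.35 and 3.56 CPM in Sham and 0.620, 1.29, 0.599 and 0.783 CPM in SNI, with no overlap. The log2 fold change was -2.10 ± 0.291 (SE), with an edgeR adjusted p of 0.0013, and the call held whichever library was left out.

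**Figure D5:**
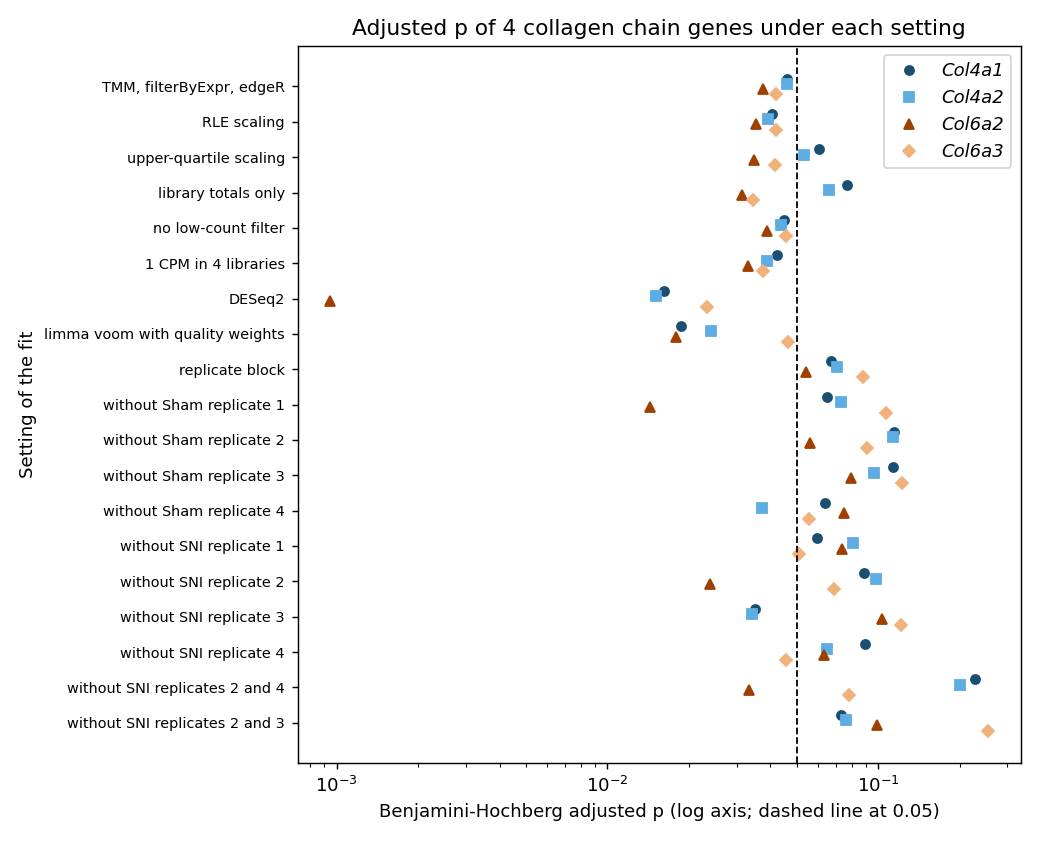
Benjamini-Hochberg adjusted p of Col4a1, Col4a2, Col6a2 and Col6a3 on a log axis under the reported fit (top row) and each of 18 other settings, with the 0.05 threshold dashed. The reported values lie between 0.0376 and 0.0462, and the fits that leave out libraries scatter to both sides of the line.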

How the data were processed

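Bulk poly(A) RNA sequencing of 4 Sham and 4 SNI libraries was analysed. The authors deposited whole-number read counts per gene symbol. Per the submitters' processing notes, fastp, HISAT2 and StringTie were used on GRCm38; the counting step, its strand setting and any filter are not stated there. The lowest value is a count of 1, and no gene has a 0 in any library. The libraries of a group are not copies (chi-square per degree of freedom 7.39 to 28.4).

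Genes kept by filterByExpr (13911) were TMM-scaled and tested with edgeR 4.0.16 in R 4.3.3 (quasi-likelihood, robust fit of group alone, two-sided, Benjamini-Hochberg, threshold 0.05). SE is the log2 fold change over the root of F. On simulated counts for this comparison (13751 genes), the test recovered 50% of 56 genes simulated with a log2 change of 0.5. For a change of 1 it found 85.5% of 69, and for 2 it found 97.1% of 70. Of its 164 calls 9 were false. The changed genes were drawn from all tested genes, whose median Sham level was 26.0 CPM, against 3.76 CPM for the tested chains. The chains also had the wider replicate spread, so these rates may be too high for them. Chains near 1 CPM rest on few counts. Levels per kb use the GENCODE M21 transcript with the longest coding sequence, a measure adopted after the levels had been seen in place of all exons, which is kept as a check. It put Col6a2 among the 6 highest in place of Col11a2. Reads of overlapping genes are uncertain.

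Members, gene lists and tests were chosen with earlier results of these data known. Genes given in every library are the chains past the threshold, the 6 next by p, the 6 highest per kb and the chains of types I, III, IV and VI. A few others are given that way too, chosen after their values were seen: Col5a1 and Col12a1. Of each further list, the genes past the threshold are named, or else the 2 of smallest p. Alternatives were other scalings, filters, tools (DESeq2 1.42.0, limma 3.58.1), thresholds, a replicate block, and leaving out each library or SNI replicates 2 and 4, or 2 and 3.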

Additional observations from a re-analysis of the deposited data

Results flagged for a closer look

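Among the 22 chains given in full by the naming rule, screened in each group of 4 libraries, 1 library stood far from the others of its group. Col28a1 had 1.61 CPM in Sham replicate 4, against 1.06 to 1.15 CPM in the other Sham libraries, and that gap took 0.832 of the group's range. Chance gives such a gap in about 1 in 20 groups, and 44 groups were screened.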

How the results depend on the processing

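The 2 chains called higher and 2 called lower became 0 higher and 0 lower with the replicate block, at a threshold of 0.01, and when SNI replicates 2 and 3 were omitted. Upper-quartile scaling and library totals each gave 0 lower, and omitting SNI replicates 2 and 4 gave 1 higher (Col6a2) and 0 lower. Leaving out 1 library gave 0 to 1 higher and 0 to 2 lower. The directions of Col4a1, Col4a2, Col6a2 and Col6a3 held in all 18 settings, with log2 fold changes of -0.42 to -0.23, -0.52 to -0.32, 0.73 to 1.08 and 0.87 to 1.21. The sign of chains near 0 changed. Col1a1 had 0.0207 with upper-quartile scaling, 0.0452 with library totals, 0.0223 with the block and 0.20 without SNI replicates 2 and 4. It had -0.25 to 0.34 when 1 library was left out. Col1a2 had -0.0048 with limma voom and -0.10 without SNI replicates 2 and 3. Col3a1 had -0.70 with limma voom, -0.0178 with the block, -0.0210 with SNI replicates 2 and 4 omitted, -1.13 with SNI replicates 2 and 3 omitted, and -0.39 to 0.43 when 1 library was left out. Col4a4 had -0.0601 to 0.51 when 1 library was left out. The cause was not tested. The labels do not say that replicate numbers pair the libraries. Same-numbered Sham and SNI libraries deviated from their group means with correlations of -0.148 to -0.0056, which give no sign of pairing but cannot exclude it. Over all genes, 698 calls became 258 to 858 when 1 library was left out, 178 or 438 with SNI replicates 2 and 3, or 2 and 4, omitted, 518 with the block and 1165 with DESeq2. Depth limits chains below about 1 CPM.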

Other observations

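Several chains differed within Sham along the same lines as Col6a1, a pattern picked out after the values were seen. Col6a1 (95.1 and 88.0 CPM against 44.3 and 32.4), Col6a2 (17.3 and 14.6 against 9.23 and 10.2), Col5a1 (17.0 and 16.9 against 12.8 and 7.57), Col23a1 (11.9 and 14.5 against 6.82 and 8.60), Col16a1 (12.6 and 15.3 against 8.85 and 10.7) and Col24a1 (4.95 and 4.85 against 1.01 and 1.95) were higher in Sham replicates 1 and 2 than in Sham replicates 3 and 4. The same order was seen in Col4a6, Col5a3, Col11a1, Col12a1, Col15a1, Col19a1, Col20a1, Col22a1 and Col27a1. The share of all genes with this order was not computed, so it cannot be called particular to collagen chains. The SNI levels of Col6a1, Col16a1 and Col23a1 lay within or near the range of the higher Sham pair, and those of Col24a1 near the lower pair. The labels give no batch for these libraries.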
